A study of Mus musculus with 2 samples.

Results

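The strongest chromosome boundaries in the list were 644 of 7610 bins of 5 kb (8.46%), chosen by the authors' own boundary strength, a score that had to be 1.5 or more. In situ Hi-C joins and counts pieces of DNA that lie close together inside fixed nuclei. The cells were mature olfactory sensory neurons (mOSNs), sorted by FACS from olfactory epithelium taken from adult mice (labelled as mixed sex), with a conditional Ldb1 knockout made by OMP-Cre. Both samples are this knockout, 2 biological replicates of 1000000 cells each fixed in 1% formaldehyde, and the strain is not specified. Omp is switched on late in the neuron's life, so the Cre acts in cells that have already matured. Ldb1 is a cofactor that joins LIM-domain transcription factors such as Lhx2 into larger complexes. No control library was analysed here, so nothing compares the knockout with normal neurons.

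A boundary separates neighbouring stretches of a chromosome that each fold mostly with themselves. Cohesin extrudes loops of DNA until it meets CTCF bound in the blocking orientation, and active promoters can also mark such borders. The strength of a boundary commonly describes how deep the dip in crossing contacts is. How the authors' score was defined was not given in the sources used here. Both replicates had been pooled before the boundaries were called, so no value carries an error between animals and no difference was tested. Intervals in brackets are exact 95% binomial intervals (for medians, the matching order-statistic interval). They cover counting error only, and neighbouring boundaries are not independent.

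CTCF consensus sequences are printed for a few of these boundaries, and only those at Msx2 show the outward arrangement described further on. They are given as the plus strand of GRCm38, with the 12 bases of the match in capitals. A match beginning with CCA lies on the forward strand, and one beginning with GCC on the reverse strand. The boundary nearest Msx2, a homeobox gene, is shown because it had the most matches within 10 kb (4, shared with the bin near Ndufs1), with reverse matches on its left and forward matches on its right (score 1.70, chr13:53435001-53440000).
Msx2, left, 8.34 kb: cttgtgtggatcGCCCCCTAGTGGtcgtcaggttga
Msx2, left, 8.29 kb: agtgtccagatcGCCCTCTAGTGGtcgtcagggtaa
Msx2, right, 2.51 kb: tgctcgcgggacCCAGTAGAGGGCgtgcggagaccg
Msx2, right, 3.74 kb: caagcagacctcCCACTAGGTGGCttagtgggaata

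The boundary beside Eef1b2 and Ndufs1 is shown because it had 3 matches in the bin, all on the forward strand, and a reverse match on its right, so that they point toward each other (score 2.09, chr1:63180001-63185000). Eef1b2 encodes a translation elongation factor subunit and Ndufs1 a subunit of respiratory complex I. Their start sites lie back to back, 3.17 kb left of the bin.
Ndufs1, in the bin, chr1:63181151-63181186: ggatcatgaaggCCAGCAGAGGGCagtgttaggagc
Ndufs1, in the bin, chr1:63181261-63181296: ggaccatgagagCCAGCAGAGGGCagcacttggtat
Ndufs1, in the bin, chr1:63182814-63182849: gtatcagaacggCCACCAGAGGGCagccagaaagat
Ndufs1, right, 7.18 kb: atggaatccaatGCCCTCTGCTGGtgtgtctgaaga

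The boundary between Txnrd3 and the pheromone receptor gene Vmn1r40 is shown as 1 of the 20 strongest beside a chemoreceptor gene (score 2.89, chr6:89680001-89685000), and the one in an intron of Bcl6, a transcriptional repressor gene, as the strongest of chromosome 16 (2.76, chr16:23980001-23985000). Each had 1 match in its bin, on the forward strand.
Vmn1r40, in the bin, chr6:89680363-89680398: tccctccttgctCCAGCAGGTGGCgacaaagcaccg
Bcl6, in the bin, chr16:23984351-23984386: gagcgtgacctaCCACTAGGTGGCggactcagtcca

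Among the 644 boundaries the median score was 1.83 (interquartile range 1.63 to 2.09, highest 4.13). Of these, 435 scored under 2, 209 scored 2 or more, 53 scored 2.5 or more and 10 scored 3 or more. The other 6966 boundaries had a median of 0.483. Just inside the threshold, the bins nearest Enpp7, Gnas, Cacna1e, Ccdc15 and Abcc12 scored 1.506, 1.505, 1.505, 1.501 and 1.501. Just outside it, those nearest Syngr1 and Evc rounded to 1.5 from below, and those nearest Rnf149, Gjd4 and Bbs5 scored 1.499, 1.498 and 1.496. The threshold cuts a continuous range and marks no gap in it.

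**Figure D1:**
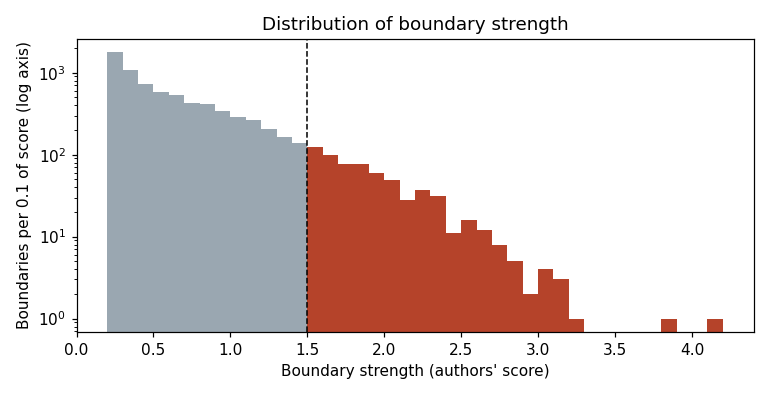
Number of boundaries per 0.1 of strength (log axis) against the authors' strength score. Bars right of the dashed line at 1.5 are the 644 strongest boundaries, with 124 in the first bar after it and 140 in the last bar before it, and counts are low and uneven above 2.

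Of the 20 strongest bins, 13 lay between protein-coding genes, 6 overlapped an exon and 1 lay in an intron. The strongest of all was in Trpm8, an ion channel gene for sensing cold, over an exon (4.13, chr1:88305001-88310000). The bin near Eif1, which helps select the start codon, separated it from the keratin gene Krt42 (score 3.11, chr11:100310001-100315000). The bin between Dio3, an imprinted deiodinase gene, and Ppp2r5c, a phosphatase subunit gene, scored 3.06 (chr12:110405001-110410000). The bin between Atp6ap1l and Rps23, a gene of the small ribosomal subunit, scored 2.95 (chr13:90915001-90920000) in an intergenic gap of 17.6 kb. By contrast, the bin between Satb1, a chromatin organizer gene, and Kcnh8, a potassium channel gene, lay in a gap of 769 kb (2.82, chr17:52535001-52540000). The bin between Gja1, which encodes connexin 43, and Hsf2, a heat shock factor gene, lay in a gap of 1084 kb (2.79, chr10:57440001-57445000). These pairs show that bins of nearly equal score occurred both in narrow and in very wide spaces between genes.

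Among those within genes, the bin at Trrap, which encodes a scaffold of histone acetyltransferase complexes, held the start site (3.05, chr5:144765001-144770000). The bin in an exon of Rps15a, a ribosomal gene, lay 11.2 kb from its start (2.81, chr7:118100001-118105000). Only 1 of the 20, the bin near Jrkl on chromosome 9 (3.01), had an assembly gap within 50 kb, and 75.1% of that bin was soft-masked repeat. The second strongest bin, in an intron of Drg1 on chromosome 11, was the first boundary listed on its chromosome and so had no interval on its left. Of all 644, 3 had an assembly gap within 50 kb (0.466%), against 0.359% of the others.

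Protein-coding start sites (TSSs) were as dense in the bins beside these boundaries as in the boundary bins. Within 10 kb of the bin, 235 of 644 had a TSS (36.5% [32.8 to 40.3]), against 31.1% of all boundaries and 30.6% [29.6 to 31.7] of the others. In the bin itself the count was 58 (9.01% [6.91 to 11.5]), against 9.8% of all boundaries. Against only those others that scored 0.5 or more, the direction within 10 kb turned (37.6% [36.0 to 39.3] of those), and in the bin the share was lower at the strongest (12.4% [11.3 to 13.6] of those). The nearest TSS lay at a median of 17.4 kb [15.4 to 21.2], against 32.4 kb [30.1 to 34.4] for all others and 19.8 kb [18.1 to 21.2] for the others scoring 0.5 or more. Per 100 bins, TSSs numbered 10.2 in the boundary bin, 10.7 in the next bin to the left and 10.4 in the next to the right. At other boundaries the centre stood out more, with 11.1 in the bin and 8.69 and 8.77 beside it. The bin share of all others was 9.88% [9.19 to 10.6], within the interval of the strongest, and that of the others scoring 0.5 or more overlapped it only at its upper end.

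TSSs beside the strongest boundaries pointed away from them in most cases. Of 234 TSSs beside the bin and within 10 kb, 142 pointed outward (60.7% [54.1 to 66.98]). At other boundaries 1126 of 2043 did (55.1% [52.9 to 57.3]), and the intervals overlap. Gene ends were also common. A protein-coding gene ended within 10 kb of 235 strongest boundaries (36.5% [32.8 to 40.3], as many as had a TSS), against 26.8% [25.8 to 27.9] of the others and 33.7% [32.1 to 35.3] of those scoring 0.5 or more. A gene end with no TSS was near 116 (18.0% [15.1 to 21.2]), against 12.1% [11.3 to 12.9] of the others. The others scoring 0.5 or more gave 15.3% [14.1 to 16.5], an interval that overlaps that of the strongest.

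The bins themselves lay between genes more often than elsewhere in the list. Outside every protein-coding gene were 394 (61.2% [57.3 to 65.0]), against 53.2% [52.0 to 54.4] of the others and 46.0% [44.3 to 47.7] of those scoring 0.5 or more. An exon was overlapped by 194 (30.1% [26.6 to 33.8]), against 32.8% of all boundaries and 41.7% [40.0 to 43.4] of the others scoring 0.5 or more. The remaining 56 lay wholly in introns (8.70% [6.64 to 11.1], against 13.8% of the others). Their genes had a median length of 125 kb, and 5 were longer than 500 kb. One was Pde4d, which encodes a cAMP phosphodiesterase, where the bin lay 760 kb from the nearest start (2.28, chr13:109210001-109215000). Cadps2, which encodes a vesicle release factor, was another (1.83, chr6:23485001-23490000). These 2 genes were named after their values were seen. Among intergenic bins with a gene on each side, the flanking genes pointed apart at 124 of 391 (31.7%) and toward each other at 60 (15.3%). The others gave 31.5% and 18.1%, and the others scoring 0.5 or more 33.9% and 17.4%. The gap between those genes had a median of 199 kb [156 to 241], against 287 kb [266 to 311] for all others and 141 kb [131 to 154] for others scoring 0.5 or more.

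**Figure D2:**
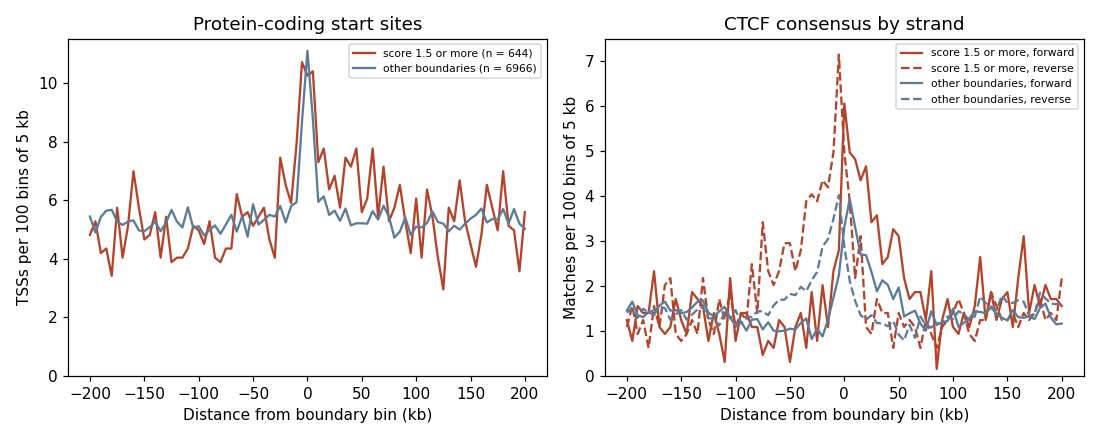
Protein-coding TSSs (left) and CTCF consensus matches by strand (right) per 100 bins of 5 kb, against distance from the boundary bin in kb, for the 644 strongest and the 6966 other boundaries. The strongest show a TSS plateau of 10.2 to 10.7 across the central 3 bins, and reverse matches reaching 7.14 at 5 kb left.

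The CTCF consensus had a higher share at the strongest boundaries than at the others, and its interval overlapped that of other boundaries of at least 0.5. Within 10 kb, 219 had a match (34.0% [30.3 to 37.8]), against 24.4% of all boundaries, 23.5% [22.5 to 24.6] of the others and 31.6% [30.1 to 33.2] of the others scoring 0.5 or more. Matches numbering 2 or more were near 51 (7.92% [5.95 to 10.3]), against 4.34% [3.87 to 4.84] of the others. For the others scoring 0.5 or more the share was 6.335% [5.54 to 7.21], and its interval overlaps that of the strongest. In the bin 63 had a match (9.78% [7.60 to 12.3]), against 5.96% [5.41 to 6.54] of the others. The others scoring 0.5 or more gave 7.99% [7.10 to 8.96], an interval that overlaps that of the strongest. A match is a sequence and not a measure of bound CTCF.

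Matches pointed outward on both sides. Of 707 matches outside the bin and within 50 kb, 501 pointed away from the boundary (70.9% [67.4 to 74.2]), against 65.9% [64.6 to 67.2] for the others and 68.6% [66.98 to 70.1] for others scoring 0.5 or more. Reverse-strand matches were 261 of 353 on the left, and forward-strand matches 240 of 354 on the right. An outward pair, with a reverse match on the left and a forward match on the right as at Msx2, was present within 50 kb of 78 boundaries (12.1% [9.69 to 14.9]). All boundaries gave 6.11%, the others 5.56% [5.03 to 6.12] and the others scoring 0.5 or more 8.58% [7.66 to 9.58]. An inward pair was present at 15 (2.33% [1.31 to 3.81]), against 1.87% [1.56 to 2.21] of the others.

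A start site or a CTCF consensus was absent from the surroundings of many of the strongest boundaries. Neither lay within 10 kb of 273 (42.4% [38.5 to 46.3]), against 53.9% of the others and 42.0% of the others scoring 0.5 or more. Both were near 83, the consensus alone near 136 and a TSS alone near 152. The median scores of these 4 sets differed little. They were 1.84 [1.80 to 1.90] with neither and 1.79 [1.70 to 1.86] with both. With the consensus alone the median was 1.79 [1.747 to 1.88], and with a TSS alone 1.86 [1.78 to 1.94]. All 4 sets had been selected by this same score, which left their medians little room to differ. The comparison therefore cannot show whether strength goes with either feature. Shares by band of score over the whole list are given in the next paragraph. The 273 with neither were intergenic in 73.3% of cases. Transfer RNA genes, known as boundary elements in some settings, lay within 10 kb of 2 strongest boundaries, near Haao and Zdhhc25, against 0.368% of all boundaries.

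Within the strongest, bands of score can be set beside those of weaker boundaries. Within 10 kb there was a TSS for 24.1% of boundaries scoring 0.2 to 0.5, 36.9% of those from 0.5 to 1 and 39.2% from 1 to 1.5. The strongest fell into bands of 266 and 169 boundaries below 2, 156 from 2 to 2.5 and 53 above, and their shares were 37.6% [31.7 to 43.7], 31.9% [25.0 to 39.5], 37.2% [29.6 to 45.3] and 43.4% [29.8 to 57.7]. The consensus was near 15.9%, 31.2% and 32.4% of the weaker bands and 36.1%, 36.1%, 30.8% and 26.4% of the stronger ones, whose intervals overlap. Exon overlap was 24.8%, 42.1% and 40.9% in the weaker bands, then 35.3% [29.6 to 41.4], 26.0% [19.6 to 33.3], 27.6% [20.7 to 35.3] and 24.5% [13.8 to 38.3].

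**Figure D3:**
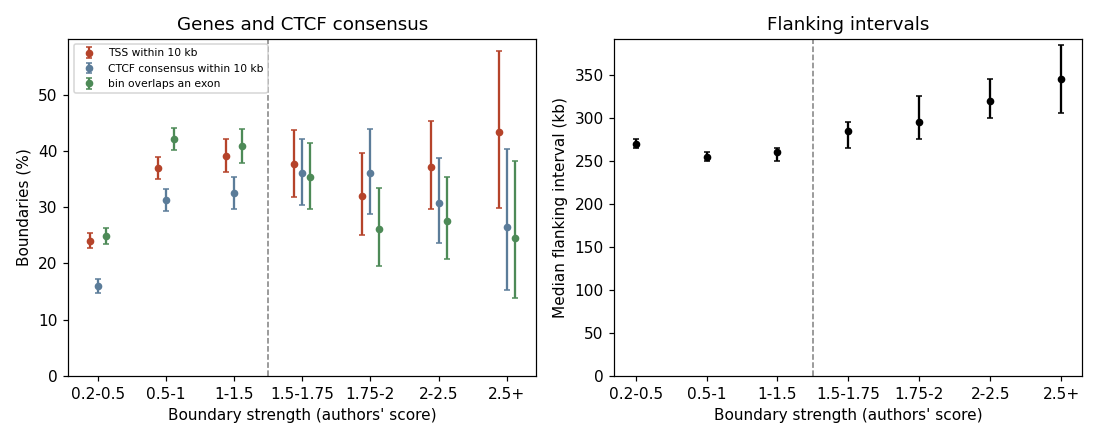
Left, percent of boundaries with a TSS within 10 kb, with a CTCF consensus within 10 kb and with an exon in the bin; right, the median flanking interval in kb; both by band of strength score, with 95% intervals as bars and the threshold of 1.5 dashed. Exon overlap declines from 42.1% to 24.5% and the interval lengthens from 255 to 345 kb between 0.5 and the top band.

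The intervals flanking the strongest boundaries were longer. Their median was 295 kb [290 to 310] over 1279 intervals, against 260 kb [260 to 265] for the others and 255 kb [250 to 260] for others scoring 0.5 or more. The shorter interval of each pair had a median of 215 kb [210 to 230] against 200 kb [200 to 205], and the longer one 400 kb [380 to 420] against 345 kb [340 to 350]. The left and right sides were alike, at 300 and 295 kb. Intervals under 200 kb made up 21.7% [19.5 to 24.1] against 29.3% [28.6 to 30.1] for the others, and those over 500 kb 17.4% [15.3 to 19.6] against 15.2% [14.6 to 15.8]. Within the strongest, the median was 285 kb [265 to 295] in the lowest band and 345 kb [305 to 385] above 2.5. The caller's window was not given in the sources used here, and how far it ties the score to the spacing was not tested.

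**Figure D4:**
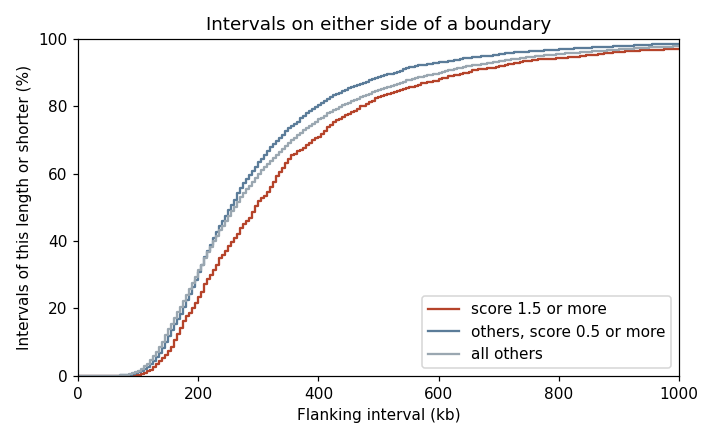
Percent of flanking intervals at or below each length in kb, for the strongest boundaries, the others scoring 0.5 or more and all others. The curve of the strongest lies to the right, with 21.7% of intervals under 200 kb against 28.4% and 29.3%.

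The extremes of spacing were set by a few regions. The bin near Wnt7b, a secreted signal gene, had the shortest pair of intervals (115 and 120 kb; score 1.51; chr15:85590001-85595000). Those nearest BC051665 (160 and 115 kb, 1.61, in an exon of the kinase gene Dapk1) and Kif13b, a kinesin gene (130 and 145 kb, 1.68), followed. The longest interval, 11980 kb left of the bin near Dock11 on chromosome X (1.51), held 1731 kb of assembly gap and was 61.7% soft-masked. Next were the bins near Hpcal1 (1.98, chr12:17830001-17835000) and Taf1b (1.92, chr12:24450001-24455000), with intervals of 3440 and 3180 kb that held no assembly gap and 3 and 7 protein-coding TSSs. These 2 intervals meet at a boundary of score 0.342. The interval of 2325 kb right of the bin nearest Mup4, a major urinary protein gene, held 400 kb of gap.

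Strongest boundaries seldom neighboured each other. Of 1279 flanking intervals, 28 ended at another strongest boundary (2.19% [1.46 to 3.15]), against 8.999% [8.53 to 9.49] of the intervals of all others and 8.58% [7.92 to 9.28] of the others scoring 0.5 or more. The next boundary had a median score of 0.475 [0.451 to 0.502], against 0.544 [0.533 to 0.555] for the neighbours of the others. These neighbour scores come from the same measure as the choice of members. The 28 intervals are 14 directly adjacent pairs, each counted from both ends, so the binomial interval given for the 2.19% is too narrow. These pairs enclosed 160 to 615 kb. The shortest ran from near Zfp385b (1.80) to near Cwc22 (2.65) on chromosome 2 and enclosed the start of Cwc22, a splicing factor gene. The next enclosed the starts of B4galnt3 and D330020A13Rik on chromosome 6 (170 kb, 1.53 and 1.69). The longest, from near Erbb4 (1.59) to near Spag16 (1.64) on chromosome 1, enclosed the start of Ikzf2, which encodes the transcription factor Helios. From one strongest boundary to the next the median distance was 2828 kb [2550 to 3090], with a median of 8 other boundaries between them. The widest autosomal stretch without one ran from near Ice1 to near Rps23 on chromosome 13 (20345 kb, 65 protein-coding TSSs).

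Strongest boundaries were spread over the autosomes and scarce on chromosome X. They made up 8.86% [8.22 to 9.55] of autosomal boundaries, from 7.58% on chromosome 16 to 10.8% [7.96 to 14.1] on chromosome 7. On chromosome X they were 7 of 424 (1.65% [0.666 to 3.37]). Chromosome X held 1.09% [0.438 to 2.23] of the strongest boundaries and 5.99% [5.44 to 6.57] of all others. It also held a low share of the others scoring 0.5 or more (3.40% [2.82 to 4.07]), so its scarcity was not limited to the strongest. The strongest bin of each chromosome scored between 2.502, near the zinc finger gene Zfp622 on chromosome 15, and 4.13 on the autosomes. On chromosome X the highest was 1.91, near Pbdc1 (105010001 to 105015000). The labels give the sex only as mixed.

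Of the 7 on chromosome X, 2 lay near the non-coding genes Xist and Firre, each just beyond the 10 kb used elsewhere. How often other boundaries of chromosome X lie as close to a non-coding gene was not counted. The bin at 103445001 to 103450000 (1.69) overlapped Tsix, the antisense RNA gene of Xist, and lay 10.4 kb from the end of Xist, the RNA that silences the inactive X. The bin at 50540001 to 50545000 (1.90) lay 10.7 kb from Firre, a long non-coding RNA gene. The next boundary, on the other side of Firre, was closer to it, at 9.68 kb, and scored 0.455. The boundary closest to 4933407K13Rik scored 0.996 and was not among the strongest. These genes were named after their values were seen. The bin near G6pdx (1.77) overlapped an exon of Ikbkg, a regulator of NF-kappaB signalling.

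**Figure D5:**
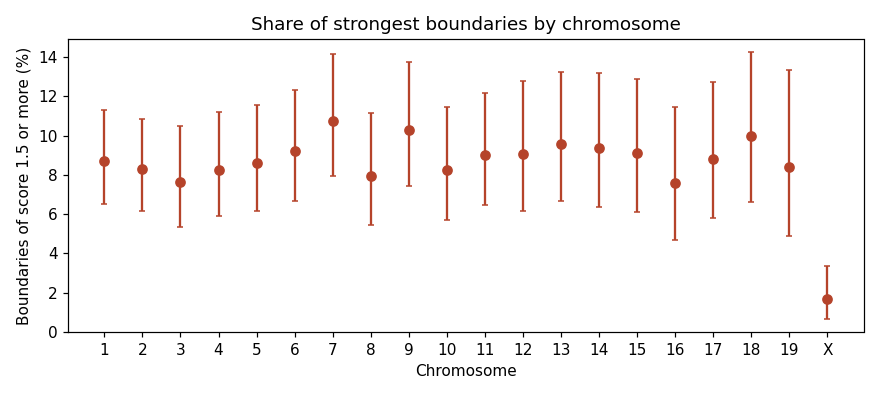
Percent of each chromosome's boundaries with a score of 1.5 or more, with exact 95% binomial intervals. Autosomes range from 7.58% to 10.8%, and chromosome X stands at 1.65%.

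Olfactory receptor (OR) genes lie in tandem clusters, and each mature neuron expresses one of them. The 42 clusters of at least 3 genes held 71 boundaries, of which 11 were among the strongest (15.5% [7.996 to 26.0], against 8.46% of the whole list). Of the 22 there that scored at least 0.5, 11 reached 1.5, against 644 of 4022 in the whole list (16.0% [14.9 to 17.2]). Among the 11, 9 lay within 50 kb of a cluster edge, the farthest of them at 32.7 kb. Of the other 60 boundaries inside the clusters 13 lay as close to an edge (21.7% [12.1 to 34.2]), and of the 11 among these that scored 0.5 or more, 7 did (63.6% [30.8 to 89.1]). Those in exons were at Olfr544 (2.62) and Olfr470 (1.87) on chromosome 7, Olfr279 on chromosome 15 (2.49), Olfr220 on chromosome 1 (1.99), Olfr1513 on chromosome 14 (1.73), Olfr311 on chromosome 11 (1.62) and Olfr998 on chromosome 2 (1.51). Those between genes were nearest Olfr986 on chromosome 9 (2.51), Olfr410 on chromosome 11 (2.38), Olfr1423 on chromosome 19 (2.07) and Olfr826 on chromosome 10 (1.86). The bins at Olfr998 and Olfr1423 were the 2 far from an edge, at 254 and 198 kb.

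Counted from the clusters, 15 of 84 edges had a strongest boundary within 50 kb (17.9% [10.3 to 27.7]). The same distance held for 941 of 21755 protein-coding TSSs (4.33%) and for 40 of 1135 OR TSSs (3.52%). Some of these boundaries stood just outside the cluster, as at Pdcl (3.23), 17.2 kb past the cluster from Olfr338 to Olfr368, and near Gabrr3, a GABA receptor gene (2.68), 21.0 kb past that from Olfr172 to Olfr209. OR TSSs within 10 kb numbered 15 of 1135 (1.32% [0.742 to 2.17]), against 1.38% of all protein-coding TSSs. Besides those named, they belonged to Olfr543 and Olfr545 at the Olfr544 bin, Olfr411 at the Olfr410 bin, Olfr996 at the Olfr998 bin, and Olfr267 on chromosome 4 (1.88).

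Clusters of vomeronasal type 1 receptor genes, which detect pheromones, held 16 boundaries. Of these 5 scored at least 0.5 and 4 were among the strongest (25.0% [7.27 to 52.4]), nearest Vmn1r178 (2.13), Vmn1r4 (1.89), Vmn1r188 (1.78) and Vmn1r77 (1.73). The bins near Vmn1r4 and Vmn1r188 lay 11.0 and 0.561 kb inside a cluster edge, and those near Vmn1r178 and Vmn1r77 174 and 349 kb inside. Type 2 clusters held 1 of 16, nearest Vmn2r8 (2.16), and 2 of the 16 scored at least 0.5. Vmn2r80 had a strongest boundary at its start (2.01), and that bin lay inside no such cluster. Of the cluster edges, 4 of 32 for type 1 (12.5% [3.51 to 29.0]) had a strongest boundary within 50 kb. For type 2 it was 3 of 34 (8.82% [1.86 to 23.7]). Both intervals overlap that of the OR cluster edges.

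Several groups of housekeeping genes, though not all, had start sites at the strongest boundaries, and those groups were also frequent at boundaries of any score. Of all 21755 protein-coding TSSs, 300 (1.38%) were within 10 kb of a strongest boundary and 3116 (14.3%) within 10 kb of any. At any boundary were 31 of 85 cytosolic ribosomal protein genes (36.5%), 26 of 67 translation factor genes (38.8%), 10 of 21 chaperone genes (47.6%), 9 of 39 proteasome genes (23.1%) and 11 of 34 splicing factor genes (32.4%). RNA polymerase II and Mediator genes (7 of 41, 17.1%) and ubiquitin-conjugating enzyme genes (6 of 31, 19.4%) lay closer to the share of all genes. Neither of these groups had a start at a strongest boundary. At the strongest boundaries the counts were small. Cytosolic ribosomal protein genes had 4 of 85 (4.71% [1.30 to 11.6]), with Rps23 (2.95) and Rps24 (1.74) at the highest scores. For the mitochondrial ribosome it was 4 of 78, among them Mrps14 (2.18) and Mrps27 (1.63). For the proteasome it was 4 of 39 (10.3% [2.87 to 24.2]), among them Psmd6 (2.74) and Psmc1 (2.60). Translation factor genes had 4 of 67, led by Eif4enif1 (3.82), which encodes a transporter of the factor eIF4E, and Eif1 (3.11). Splicing factor genes had 5 of 34 (14.7% [4.95 to 31.1]), led by Srsf5 (2.22) and Snrpb2 (1.87). Respiratory chain genes had 4 of 85, of which Atp5o (2.22) is annotated as 2 genes, with Uqcrc2 at 2.17. Chaperone genes had 2 of 21, Cct4 (1.62) and Cct3 (1.53), both subunits of the chaperonin TRiC. With 5 or fewer genes in each list, the intervals are wide.

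Other families ranged from 0% to 5.97%. Histone genes had 4 of 67 (5.97% [1.65 to 14.6]), all at the bin overlapping an exon of Trim38 on chromosome 13 (1.90), including Hist1h1a and Hist1h3a. That bin had 5 TSSs within 10 kb, the most of any. Next was the bin at Commd1 (1.62, chr11:22980001-22985000) with 4, and those at Olfr544, Tmem115 (2.20) and Mepce (2.06) had 3 each. Solute carrier genes had 6 of 334 (1.80%), among them Slc10a1 (2.22), for bile acid uptake, and Slc17a6 (1.71), for glutamate loading of vesicles. The Slc10a1 bin is also that of Srsf5. Zfp genes had 1 of 394 (0.254% [0.00643 to 1.41]), Zfp407 (2.33). None was found among 39 Hox, 57 clustered protocadherin, 49 keratin, 15 trace amine receptor, 41 RNA polymerase II and Mediator, and 31 ubiquitin-conjugating enzyme genes (exact upper bounds from 6.27 to 21.8%).

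Marker lists of the epithelium's cell types are short, and at the 1.38% of all protein-coding TSSs a count of 0 in such a list carries little information. Of 28 mature neuron genes, 2 had a strongest boundary within 10 kb (7.14% [0.877 to 23.5]), Gnal (1.78), the olfactory G protein subunit gene, and Slc17a6. None of 17 immature neuron entries, 12 progenitor, 10 horizontal basal cell, 13 sustentacular and gland, or 15 immune and vascular genes did (exact upper bounds from 19.5 to 30.9%). A boundary list does not measure how many such cells were in the sort. Of 31 axon guidance and sorting genes only Plxna4 (2.38), a semaphorin receptor gene, had one. None of 24 Ldb1 partners and OR choice regulators, 18 cohesin and CTCF genes or 16 immediate early genes did (exact upper bounds from 14.2 to 20.6%), which at that share of all genes is no result about them. At boundaries of any score were 3, 6 and 0 of these. Among the listed regulators, Ebf2 and Ebf3 were each the gene nearest to a strongest boundary (1.56 and 1.89), though at more than 10 kb. The strongest boundary closest to Ldb1 lay 1135 kb away near Slf2 (2.08), to Lhx2 891 kb away near Ppp6c (2.43), to Ebf1 852 kb away near Ttc1 (1.90) and to Omp 1210.5 kb away near Nars2 (1.90). The median over all protein-coding TSSs was 974 kb, so Lhx2 and Ebf1 lay somewhat closer than that and Ldb1 and Omp farther.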

How the data were processed

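The deposited list gives 7610 boundaries as 5 kb bins with a strength score. Per the labels' design text, the authors combined the contact pairs of both replicates, built 1 contact matrix on GRCm38 and called boundaries from it beside a diamond insulation score. The caller, its version, its window and the score's scale were not given in the sources used here, and the sequencing depth behind a bin is unknown. The members and the gene lists were chosen with earlier results of these data known. Genes came from GENCODE M21 (21755 protein-coding) and the sequence from the RefSeq copy of GRCm38. A feature counted as at a boundary when inside the bin or at most 10 kb outside. The CTCF consensus (12728 matches) and a looser core were searched as letters on both strands. Flanking intervals run from bin start to bin start. OR genes up to 200 kb from the next were joined into clusters (3 genes or more), and 41 symbols with -ps were included. Genes named were those nearest the 20 strongest bins, the strongest of each chromosome, the 5 bins on each side of the threshold, the extremes of spacing, of TSSs and of matches, the 2 leading genes of each list, every OR gene within 10 kb, and Ldb1, Lhx2, Ebf1 and Omp. A withheld item that this rule names is not reported here. The rest were chosen after their values were seen. Counting functions were tested on planted features. The tools were scipy 1.17.1, pandas 2.3.3, numpy 2.4.6, matplotlib 3.10.9 and Python 3.11.15. Alternatives varied the window, consensus, cluster definition, comparison set, threshold and chromosomes, and 1 set of them was chosen after seeing the data.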

Additional observations from a re-analysis of the deposited data

How the results depend on the processing

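No paired analysis was possible because both replicates were pooled into 1 list before boundaries were called, which also prevented leaving either out. Of 40 alternatives, 26 gave a value within the 95% interval of the reported one (for a count, within 1.5 times). The ratio of the TSS share to that of the other boundaries (1.19) turned below 1 with the bin alone (0.912) and against other boundaries of score 0.5 or more (0.970). For the CTCF consensus (1.44) it was 1.64 in the bin alone, 1.07 with the looser core, 1.08 against others of score 0.5 or more and 1.22 at a threshold of 2. The share of matches pointing away (70.9%) was 52.6% with the looser core and 66.2% within 10 kb. The interval ratio (1.13) was 1.10 at a lower threshold (1046 boundaries) and 1.245 at 2 (209 boundaries). The exon ratio (0.913) was 0.722 against others of score 0.5 or more. On chromosome X the share was 3.54% at the lower threshold and 0% at 2 (0 of 424, exact upper bound 0.866%), from 1.65%, and in OR clusters it was 7.04% at 2 (from 15.5%). The whole list of 7610 also held 1046 boundaries at the lower threshold, 644 at 1.5 and 209 at 2. Shares of this kind fall as a threshold rises, so these changes alone show no weaker or stronger excess over the list. The looser core has 282798 matches in the genome. The lists with at least 1 start at a strongest boundary numbered 15 of 29, and 12 at a threshold of 2, an alternative chosen after seeing the data.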

Other observations

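Processed pseudogenes, which arise from copied messenger RNAs, lay within 10 kb of 86 of the strongest boundaries (13.4% [10.8 to 16.2]), against 8.69% [8.03 to 9.37] of the others and 9.53% [8.56 to 10.6] of the others scoring 0.5 or more. For long non-coding RNA starts the shares were 12.6% [10.1 to 15.4] of the strongest and 11.9% [11.1 to 12.7] of the others. Against the others scoring 0.5 or more the direction turned, as those gave 14.18%, a share within the interval of the strongest.

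Promoters, from 250 bases before to 50 after the start (RefSeq, GRCm38.p6), were matched for 196 of the 300 genes at strongest boundaries. The ETS core CCGGAAGT, searched on both strands, was in 11.7% [7.59 to 17.1] of them, in 8.75% [7.51 to 10.1] of promoters at other boundaries and in 6.12% [5.72 to 6.53] of all 13786 matched promoters. The YY1 core AAGATGGC was in 5.61%, 4.98% and 3.54%, and the TATA box letters TATAAA in 7.65%, 7.69% and 11.3%. At the strongest boundaries the intervals were 2.835 to 9.82% for YY1 and 4.35 to 12.3% for the TATA box letters. Both include the shares of the other sets. The ETS interval of the strongest includes the share at other boundaries. These matches describe letters, not binding.

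Dividing each chromosome into 4 equal stretches, the one farthest from the centromere held 31.2% [27.7 to 34.9] of the strongest boundaries and 27.1% [26.1 to 28.1] of the others.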
